A study of Mus musculus with 192 samples.

Results

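The regions described here are accessible windows that lie in large stitched clusters and away from promoters. They were chosen by the measured positions of the windows. Neighbouring windows of the deposited list were joined when the gap between them was below a fixed stitching distance (the widest gap left inside a kept cluster was 12.49 kb), clusters of 12 or more windows were kept, and of these the windows with a midpoint over 1 kb from every protein-coding or long non-coding transcript start were taken as members. In all, 1995 of 50000 windows (3.99%) were members, in 189 clusters, out of 33016 windows away from starts. The windows came from Pi-ATAC, in which cells are stained for proteins, index sorted singly and profiled for open chromatin with a transposase. The cells were a mixture of the mouse breast cancer cell line 4T1, sorted as EpCAM+ (96 cells by title), and splenocytes, sorted as CD45+ (96 cells by title), from an MMTV-PyMT mouse that had no tumour when the spleen was taken. In such mice a mammary tumour virus promoter drives a viral oncogene in mammary epithelium. Both groups were fixed with formaldehyde and transposed in bulk before sorting. The line is 1 culture and the splenocytes hold several leukocyte types. The list was made on aggregated cells and has no value per group, and its peak names were read as both groups together, although the methods describe calling per condition. It was treated as 1 sample: there are no replicates, no test was possible, and 4T1 cells and splenocytes could not be told apart. Intervals are 95% Wilson intervals. They cover counting error only and treat windows as independent, which neighbouring windows of a cluster are not. No histone mark was measured, so whether the clusters are enhancers could not be checked.

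Open chromatin outside promoters marks sites where transcription factors displace nucleosomes, and many such sites act as enhancers. Dense groups of enhancers, often called super-enhancers or stretch enhancers, tend to lie near genes that define or regulate a cell type, and they are usually defined by histone acetylation or coactivator signal rather than by accessibility. In epithelial tumour cells many distal sites carry the binding sequence of AP-1, a dimer of FOS and JUN family proteins that responds to growth factors and stress. In leukocytes, distal sites are often bound by PU.1, RUNX, ETS and IRF factors. None of these proteins was measured here, so a match to a consensus sequence is a description of the DNA and not of binding.

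To show the DNA that the clusters are made of, 1 stretch of 200 bases is given for 9 of the 10 clusters with the most members, numbered by size. It is centred on the summit of the member window with the most different consensus words within those bases. Sequences are mm9, plus strand, 5′ to 3′, and capitals mark the words found on either strand.
Cluster 1, chr2:173100056-173100255: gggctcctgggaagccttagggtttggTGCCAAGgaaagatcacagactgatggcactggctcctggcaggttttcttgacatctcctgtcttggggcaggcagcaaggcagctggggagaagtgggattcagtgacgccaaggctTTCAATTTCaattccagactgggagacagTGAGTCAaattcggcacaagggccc
Cluster 2, chr6:31029670-31029869: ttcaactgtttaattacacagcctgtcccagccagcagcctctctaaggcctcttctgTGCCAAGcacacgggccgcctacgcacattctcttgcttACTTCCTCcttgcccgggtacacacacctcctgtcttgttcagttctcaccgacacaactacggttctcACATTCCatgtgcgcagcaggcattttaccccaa
Cluster 3, chr17:71069494-71069693: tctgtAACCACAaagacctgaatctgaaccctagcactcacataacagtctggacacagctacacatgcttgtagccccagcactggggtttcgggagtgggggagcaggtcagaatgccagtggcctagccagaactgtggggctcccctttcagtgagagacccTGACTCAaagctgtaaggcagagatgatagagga
Cluster 5, chr12:88160271-88160470: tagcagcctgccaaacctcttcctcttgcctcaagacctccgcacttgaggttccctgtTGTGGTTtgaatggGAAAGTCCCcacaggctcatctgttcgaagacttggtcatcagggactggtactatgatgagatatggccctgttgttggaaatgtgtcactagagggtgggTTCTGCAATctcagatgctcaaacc
Cluster 6, chr8:111240023-111240222: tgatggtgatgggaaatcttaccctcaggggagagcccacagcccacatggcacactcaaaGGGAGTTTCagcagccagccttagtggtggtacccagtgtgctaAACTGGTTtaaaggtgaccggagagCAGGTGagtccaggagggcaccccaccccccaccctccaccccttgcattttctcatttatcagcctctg
Cluster 7, chr4:144812037-144812236: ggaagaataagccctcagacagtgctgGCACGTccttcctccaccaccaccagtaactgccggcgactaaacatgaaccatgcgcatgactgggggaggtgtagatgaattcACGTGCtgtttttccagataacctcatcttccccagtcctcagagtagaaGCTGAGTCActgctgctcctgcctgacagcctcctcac
Cluster 8, chr8:124698132-124698331: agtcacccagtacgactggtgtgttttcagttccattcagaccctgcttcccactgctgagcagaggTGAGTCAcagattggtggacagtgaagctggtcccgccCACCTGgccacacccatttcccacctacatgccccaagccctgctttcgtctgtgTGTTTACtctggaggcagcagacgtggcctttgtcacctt
Cluster 9, chr4:140815173-140815372: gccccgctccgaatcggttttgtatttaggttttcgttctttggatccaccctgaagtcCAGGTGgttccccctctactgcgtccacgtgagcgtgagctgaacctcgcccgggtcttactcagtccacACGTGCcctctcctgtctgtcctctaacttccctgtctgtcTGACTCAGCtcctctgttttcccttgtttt
Cluster 10, chr4:154500682-154500881: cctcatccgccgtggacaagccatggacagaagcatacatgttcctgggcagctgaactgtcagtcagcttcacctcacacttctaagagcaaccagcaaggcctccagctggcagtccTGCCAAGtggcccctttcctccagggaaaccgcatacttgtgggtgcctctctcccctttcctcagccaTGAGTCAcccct
The words were AP-1 with NFI and IRF in cluster 1, TEAD with NFI and PU.1 in cluster 2 and AP-1 with RUNX in cluster 3. Cluster 5 gave RUNX, CEBP and NF-kB, and cluster 6 gave GRHL, SNAI and ZEB, and NF-kB. Cluster 7 gave AP-1, held inside the longer BACH and NRF2 word, with HIF. Cluster 8 gave AP-1, FOX, and SNAI and ZEB. Cluster 9 gave AP-1 inside the BACH and NRF2 word with HIF and with SNAI and ZEB, and cluster 10 gave AP-1 and NFI. An AP-1 word was therefore present in 6 of the 9 stretches, a count raised by picking windows with many words. In clusters 7 and 9 the same bases also counted as the BACH and NRF2 word. Over all members, 12.1% held the AP-1 word in the 200 bases around the summit. The stretches of clusters 2, 5 and 9 lay between genes and the other 6 in introns, that of cluster 8 only in the long annotated model Gm20388. Those of clusters 1 and 6 lay 1.53 and 1.58 kb from a protein-coding start (Pmepa1 and Zfhx3), and that of cluster 3 lay 126 kb from the nearest, that of Tgif1.

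Most clusters were modest in size and short of the largest by a wide margin. They held a median of 14 windows (lowest 12, highest 39), of which a median of 10 were members (lowest 1, highest 33). Their span ran from 8.71 to 123 kb with a median of 43.1 kb, and windows covered a median of 17.0% of it. A total of 47 clusters sat at the threshold with 12 windows and 66 lay just below it with 11, so the boundary cuts through a continuum. The 393 members of clusters with 12 windows had a median GC content of 51.6% and an AP-1 word in 26.5% of windows. The 468 windows away from starts in clusters of 11 had 51.6% and 29.3%. Few clusters were free of promoters: 13 of 189 had no window within 1 kb of a start, 44 had 1 or 2, and in 32 the promoter windows outnumbered the members.

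The largest cluster covered Pmepa1, a TGF-beta-induced membrane protein gene that restrains SMAD signalling. It ran over 64.6 kb (chr2:173044038-173108654), and 33 of its 39 windows were members, 30 of them in introns and 3 between genes. Of these members, 4 held the AP-1 word, 6 the NFI word and 4 the PU.1 word. Cluster 2 (chr6:31006104-31080943) overlapped no protein-coding gene, only the annotated long non-coding genes Gm13834 and Gm13833. Its 31 members, among 32 windows, all lay between genes, 97.1 kb from Klf14, a zinc-finger transcription factor gene, and 34.6 kb from AB041803. The AP-1 word was found in 6 of its members and the TEAD word in 4.

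Clusters 3 and 4 lay inside long genes. Cluster 3 (chr17:71059054-71107489) had 24 members of 26 windows inside Dlgap1, which encodes a scaffold protein of synapses, and its nearest protein-coding neighbour, 86.1 kb away, was Tgif1, a SMAD corepressor gene. Of the 24 members, 7 held the AP-1 word and 7 the RUNX word. Cluster 4 (chr1:62747679-62814678) had 22 members of 23 windows over the 5′ part of Nrp2, the gene of a coreceptor for semaphorins and vascular growth factors, and 7 held the AP-1 word. Cluster 5 (chr12:88127506-88178048) was wholly intergenic: all 20 windows were members, and 7 held the AP-1 word. The nearest protein-coding genes on its sides were Gm6772 and 6430527G18Rik.

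The next clusters touched a transcription factor, cytokine receptors, an ephrin receptor and a SMAD corepressor. Cluster 6 (chr8:111229649-111288799) had 20 members of 21 windows around the start of Zfhx3, a zinc-finger homeobox gene, with the AP-1 word in 4. Cluster 7 (chr4:144799279-144863365) had 20 of 23 over the tumour necrosis factor receptor genes Tnfrsf1b and Tnfrsf8, with the AP-1 word in 5. Cluster 8 (chr8:124663584-124710862) consisted of 19 members, 8 of them with the AP-1 word, and overlapped only Gm20388, an annotated model of 4435 kb that also runs across other genes. Its nearest protein-coding neighbours were Banp and Gm22, 110 and 82.6 kb away, both inside the stretch that the model spans. Cluster 9 (chr4:140792727-140867289) had 19 members of 27 windows over Epha2, the gene of an ephrin receptor tyrosine kinase, Arhgef19 and C630004L07Rik. Cluster 10 (chr4:154500532-154552708) consisted of 18 members over Ski, a corepressor of SMAD proteins, and Morn1. In the plot of these 10 clusters, members with the AP-1 word did not fill any cluster, and in clusters 5 and 10 they were bunched. Those of cluster 10 all lay from -25.8 to -18.5 kb from its centre. Those of cluster 5 lay at -24.4 and -21.1 kb and from 20.3 to 22.7 kb.

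**Figure D1:**
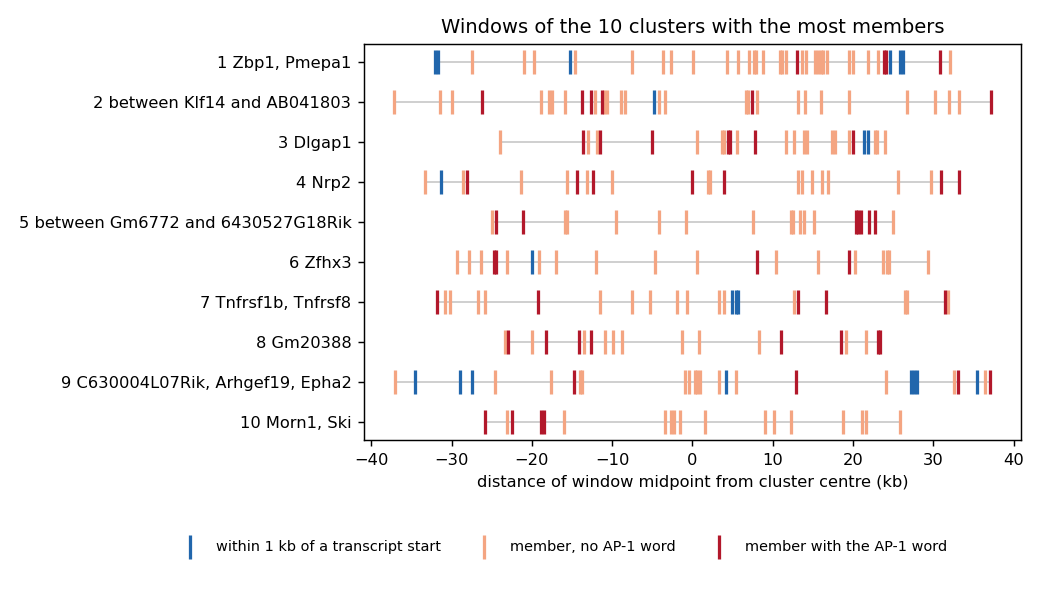
Windows of the 10 clusters with the most members, 1 row per cluster, with the protein-coding genes it overlaps or lies between. The x axis gives the distance of each window midpoint from the cluster centre in kb, dark red ticks are members with the AP-1 word, light ticks members without it, and blue ticks windows within 1 kb of a transcript start. The 10 clusters held 226 members, of which 56 (24.8%) had the AP-1 word.

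Members were spread unevenly over chromosomes. They made up 6.04% of all windows away from starts, from 0.855% on chromosome 14 (1 cluster) to 10.5% on chromosome 8 (22 clusters) and 10.8% on chromosome 15 (16 clusters). Peak calls carry consecutive numbers, and on chromosomes 1 and 10 to 13 fewer of the numbered calls were in the list. Members were 5.47% of windows away from starts on these chromosomes and 6.20% on the others. From the first to the last window of the clusters, 70.5% of the numbered calls were in the list, against 37.1% elsewhere, as the rule itself favours stretches where calls were kept. The surroundings were also rich in windows: the 500 kb on either side of a cluster held a median of 45 windows per Mb (lowest 8, highest 103), and the genome as a whole held 18.9.

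By position in genes, members were close to windows of smaller clusters and had a lower intergenic share than windows without neighbours. Introns held 47.2% of members (45.0% to 49.4%), exons 7.02% and intergenic sequence 45.8%. The intronic members included all 19 of cluster 8, which lay only in the long model Gm20388. The intronic share was 49.6% in distal windows of clusters of 2 to 11 and 41.6% in distal windows with no neighbour within the stitching distance, called lone windows below. Intergenic sequence held 45.3% and 55.0% of these groups, and exons 5.11% and 3.41%. Single clusters were less mixed: in 54 clusters over 70% of members were intronic, and in 60 over 70% were intergenic. Members lay closer to genes. Their median distance to a protein-coding start was 8.92 kb (quartiles 3.62 and 21.0 kb), against 14.2 kb in smaller clusters and 40.5 kb for lone windows, and 3.06% of members against 28.3% of lone windows were over 100 kb away. The rule favours this order, because windows at starts count towards cluster size and a lone window has no window within the stitching distance. Members close to a start were common: 277 lay between 1 and 2 kb from it. Calls with several summits gave 25.4% of members, against 14.4% in smaller clusters, 0.0446% in lone windows and 18.2% of all windows, a share that the rule raises because each summit adds a window. Of all members, 28.0% overlapped another member.

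Members were also richer in G and C than other distal windows. The median GC content of members was 51.8% (quartiles 48.4% and 55.2%), against 49.4% in smaller clusters and 47.4% in lone windows. The surroundings differed too: window-free sequence 2 kb away had 48.4% around members and 45.0% around other distal windows. The median of members was higher than that of lone windows on 20 of 20 chromosomes, by 0.600 to 6.90 percentage points. It was higher than that of smaller clusters on 17 of 20. GC content rose with each step of cluster size, from 47.4% in lone windows over 48.6% in pairs and 51.2% in clusters of 9 to 11 windows to 52.2% in those of 21 or more, so members continued a gradient and no break was seen at 12 windows. Distance from starts moved with this result too, and its part in it was not tested. At 1 to 2 kb from a start members had 52.6% and lone windows 49.2%, at 2 to 5 kb 52.6% and 49.0%, at 5 to 20 kb 51.2% and 48.2%, and over 20 kb 51.4% and 46.8%. The ratio of observed to expected CpG was low in members (median 0.234), lone windows (0.191) and smaller clusters (0.226), whereas promoter windows of the same clusters had 0.596 and a GC content of 58.0%. Windows of a cluster varied among themselves about as much as clusters did: in the 146 clusters with 8 or more members the mean SD of GC content within a cluster was 4.10 points, and the SD of cluster means was 3.24 points.

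**Figure D2:**
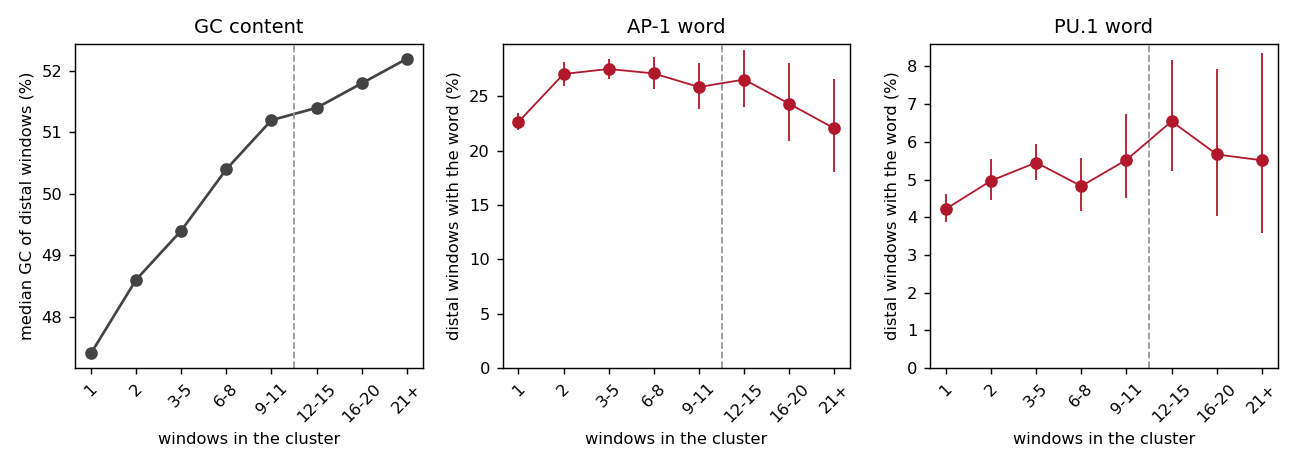
Windows away from starts by the number of windows in their cluster (x axis), with members to the right of the dashed line. The panels give the median GC content (%, axis not from 0), and the share (%) of windows with the AP-1 word and with the PU.1 word, with 95% Wilson intervals. GC content climbed from 47.4% to 52.2%, and the AP-1 share was 22.6% in lone windows, 27.5% in clusters of 3 to 5 and 22.0% in clusters of 21 or more.

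A total of 20 consensus words were searched on either strand over the 500 bases of each window. They were AP-1 TGACTCA (in 19.8% of all 50000 windows), BACH and NRF2 GCTGAGTCA, which holds the AP-1 word (2.34%), TEAD ACATTCC (7.78%), NFI CTTGGCA (10.3%), RUNX TGTGGTT (11.3%), IRF GAAANNGAA (13.1%) and GRHL AACNGGTT (3.44%). ETS CCGGAAGT (2.94%) and PU.1 GAGGAAGT (4.63%) share their last 6 bases. The others were CTCF AGNGGGCGC (3.19%), GC box GGGGCGGGG (9.11%), CEBP ATTGCNNAA (3.40%), FOX TGTTTAC (5.80%), HIF ACGTGC (9.24%), STAT TTCCNGGAA (1.83%), SNAI and ZEB CACCTG (35.3%), AGATAAG of GATA factors (4.56%), NF-kB GGGANTTTC (2.12%), MEF2 CTAAAAATA (0.788%) and HNF1 GTTAATNAT (0.778%).

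By percentage points, AP-1 was the word that set members furthest apart from the sequence around them, but members were close to other distal windows. It was found in 501 members (25.1%, 23.3% to 27.1%) and in 7.90% of window-free sequences of the same length 2 kb from members. Lone windows had 22.6% (21.9% to 23.4%) and smaller clusters 27.2% (26.5% to 27.8%), so over the 500 bases members lay between them. The difference from smaller clusters was -2.05 points and stayed negative, from -3.98 to -0.824, under the 11 alternatives run for it. In the central 200 bases members had 12.1%, lone windows 12.2% and smaller clusters 14.1%. The difference of 2.48 points from lone windows was positive on 15 of 20 chromosomes, and it moved with the choice of windows and of the bases searched. It was 0.0713 points when overlapping windows were merged, 0.220 with a stitching gap of 8 kb and 0.771 with 16 or more windows per cluster, but 3.80 with a gap of 20 kb and 4.08 without chromosomes 1 and 10 to 13. When only the central 200 bases were searched it was -0.102. Members of multi-summit calls, some of whose windows overlap and can share words, had the AP-1 word in 33.3%, and those of other calls in 22.3%. The part of overlap in this was not tested. Within 50 bp of the summit there were 6.47 AP-1 words per 100 members, 7.66 per 100 lone windows and 8.06 per 100 windows of smaller clusters. Between 300 and 500 bp from the summit these fell to 2.74, 2.13 and 2.86 per 100 bp. In members the word formed a broad plateau. The bins next to the summit held 3.06 and 3.41 per 100 windows (61 and 68 words). Those 50 to 100 bp from it held 3.61 and 3.86 (72 and 77 words), a gap of few words. Smaller clusters were also flat there, with 4.04 and 4.02 next to the summit and 4.21 and 4.07 at 50 to 100 bp. In lone windows the bins next to the summit were the highest (3.71 and 3.94).

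Words of factors named for leukocytes did not move together. The PU.1 word was in 6.12% of members (5.15% to 7.25%), 5.20% of smaller clusters and 4.22% of lone windows. The sequence around members had 3.75%, and members were above lone windows on 15 of 20 chromosomes. The ETS word was rarer, with 30 members (1.50%, 1.06% to 2.14%) against 1.03% of smaller clusters and 0.633% of lone windows. RUNX went the other way, at 11.7% of members (10.3% to 13.2%), 14.0% of smaller clusters and 13.5% of lone windows. Its share in the sequence around members, 13.3%, was also above that of members. The IRF word was in 13.1% of members, 13.7% of smaller clusters and 14.3% of lone windows, and the sequence around members had 13.4%. With lone windows weighted to the GC content of members, the PU.1 difference was 1.53 points, the ETS difference 0.415 and the RUNX difference -0.865. Of 6 pairs of words counted, AP-1 with PU.1 occurred in 37 members (1.86%) and in 0.955% of lone windows. AP-1 with RUNX was in 2.86% and 3.52%, AP-1 with TEAD in 2.11% and 2.47%, AP-1 with NFI in 2.86% and 2.93%, RUNX with PU.1 in 0.602% and 0.589%, and TEAD with NFI in 1.15% and 1.14%.

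Words of factors active in epithelial cells were close to those of other distal windows. TEAD was in 8.92% of members, 9.49% of smaller clusters and 8.77% of lone windows, against 5.74% of the sequence around members. NFI was in 12.0%, 12.1% and 11.3% of these groups, against 9.59%. The GRHL word belongs to factors that keep epithelial junctions. It was in 4.46% of members (3.64% to 5.46%), 3.8% of smaller clusters and 3.44% of lone windows, and the sequence around members had 3.85%. The GC box, a site of SP family factors, was in 5.06% of members, 3.62% of smaller clusters and 2.00% of lone windows. It was higher in members than in lone windows on 19 of 20 chromosomes. The SNAI and ZEB word was in 39.3%, 37.4% and 34.0% of these groups. With lone windows weighted to the GC content of members, the GC box and the SNAI and ZEB differences from lone windows became 0.555 and -0.789 points. GATA (4.36% against 5.22% of smaller clusters and 5.93% of lone windows) and CEBP (3.51% against 3.7% and 4.65%) had lower shares in members. None of the 20 words was found in 16.1% of members, 16.9% of smaller clusters and 20.3% of lone windows.

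**Figure D3:**
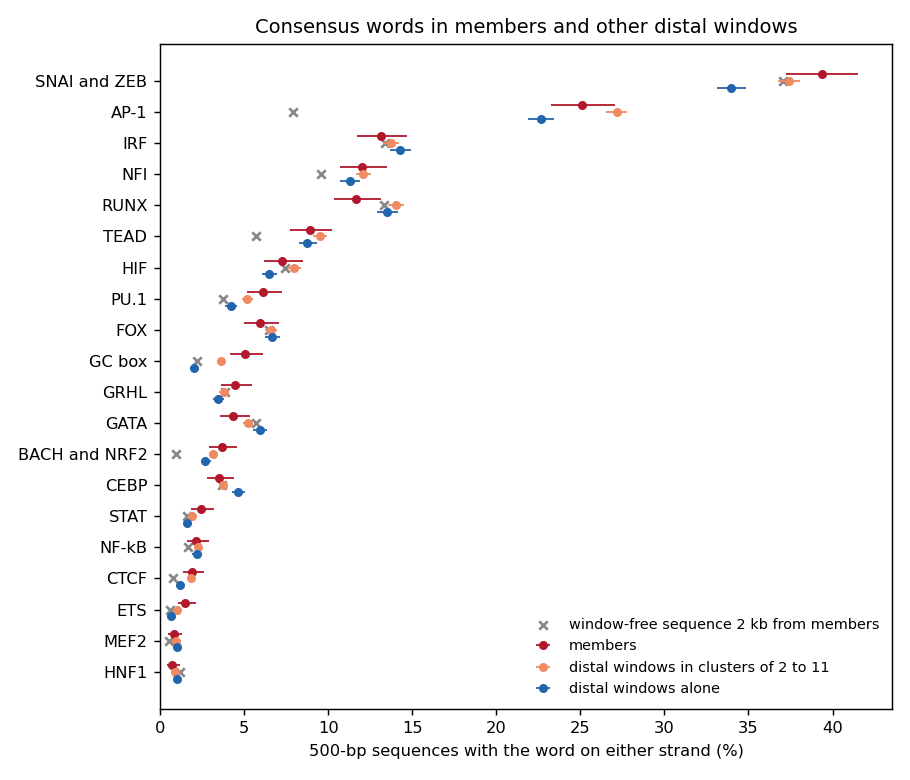
Share of sequences of 500 bp (x axis, %) that hold each of the 20 consensus words (y axis), in members, distal windows of clusters of 2 to 11, and lone windows, with 95% Wilson intervals. Crosses give window-free sequence 2 kb from members. For AP-1, 25.1% of members lay far above the 7.90% of the surrounding sequence and between the 22.6% of lone windows and the 27.2% of smaller clusters.

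**Figure D4:**
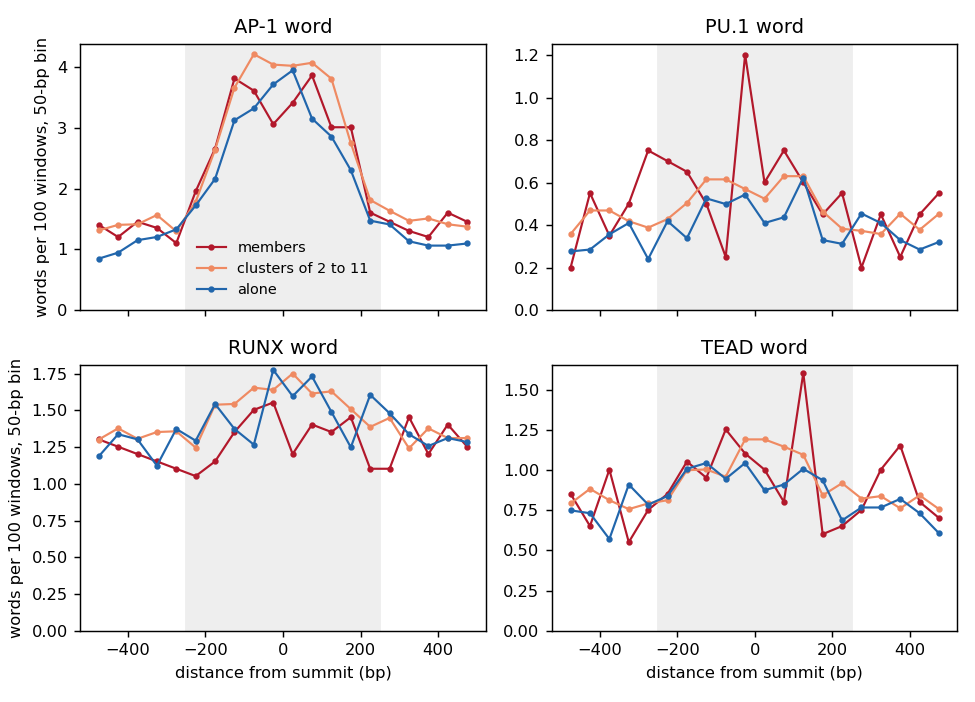
Words per 100 windows in bins of 50 bp (y axis) by distance from the summit in bp (x axis), for AP-1, PU.1, RUNX and TEAD, in members, smaller clusters and lone windows. The 500 bp of the window are shaded. AP-1 words were denser inside the window than outside it in each group, and the other curves rest on far fewer words: 122 members held a PU.1 word and 178 a TEAD word.

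The AP-1 word occurred in at least 1 member of 167 of 189 clusters and in at least 3 members of 89. It was in 25.1% of members and clusters held a median of 10 members, so most clusters would hold it at that share alone. In the 146 clusters with 8 or more members the share of members with it had a median of 25.0% and ran from 0 (7 clusters) to 71.4%, with counts per cluster of 8 to 33 windows that leave each share imprecise. The PU.1 word was in at least 1 member of 85 clusters, and 80 of these had an AP-1 member as well, as did 167 of all 189. Across the 146 clusters the AP-1 share and the share of members with a PU.1, RUNX, IRF or ETS word had a Pearson r of 0.0474 and a Spearman correlation of 0.0716, points that share the depth and the selection of 1 list. By distance from a start, the AP-1 word was in 20.2% of members (15.9% to 25.3%) at 1 to 2 kb, 24.2% at 2 to 5 kb, 27.3% (24.4% to 30.5%) at 5 to 20 kb and 25.0% farther away. The intervals of the nearest members and of those at 5 to 20 kb overlap.

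Genes with member windows were then counted from 17 lists, chosen with earlier results of these data known. A gene counted when a member lay in it or within 10 kb. Of 22350 protein-coding genes, 475 did so (2.13%), and of the 15189 genes with any window of the list there, 3.13%. Signalling and AP-1 genes had the highest counts. TGF-beta signalling had 5 of 18 genes (27.8%): Pmepa1 with 33 member windows, Ski with 12, Tgfbr2, the type II receptor, with 8, Smad7, the inhibitory SMAD, with 3, and Tgif1 with 2. Of the members counted for Pmepa1, 30 lay inside the gene. The list of EGF receptor and ERK feedback genes gave 5 of 20 (25.0%), with neither the EGF receptor gene nor a gene of its ligands among them. They were the ERK phosphatase genes Dusp6 with 7 member windows, Dusp5 with 6 and Dusp7 with 6, and the ephrin receptor gene Epha2 with 5 and the ephrin gene Efna1 with 2.

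AP-1 factor genes gave 4 of 15 (26.7%). Junb, which encodes a JUN family protein, had 14 member windows, 1 of them inside this short gene. Bach1, a repressor that binds related sites, had 9, Fosb 5 and Atf3, a stress-induced factor, 3. Nfix, of the nuclear factor I family, had 8, as 1 of 4 genes. Amotl2, which encodes a YAP-binding junction protein, had 8, as 1 of 14 genes of the TEAD and YAP list. These lists differ in gene length, which can change the chance to hold a window: the median was 64.5 kb for TGF-beta signalling, 15.0 kb for the EGF receptor and ERK list, 10.5 kb for AP-1 factors and 15.4 kb for all protein-coding genes. The 475 genes with member windows had a median length of 12.54 kb. The part of gene length in these counts was not tested.

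Cell type marker lists gave 0 to 2 genes each, so their shares rest on very few genes. Epithelial genes gave 2 of 30 (6.67%), St14, which encodes the membrane protease matriptase, with 9 member windows and the desmosome gene Pkp3 with 4. All 30 epithelial genes had some window of the list in them or within 10 kb. So had 23 of 25 pan-leukocyte, 20 of 20 B cell and 18 of 20 T cell genes, but only 13 of 19 myeloid and 9 of 15 mammary lineage genes. Pan-leukocyte genes gave 1 of 25, Runx1, a regulator of blood cell development, with 17. T cell genes gave 2 of 20, Ets1 with 14 and Gata3 with 3, and Gata3 was also the 1 gene of 15 on the mammary lineage list. Myeloid genes gave 1 of 19, Cebpb with 6, and B cell genes gave 0 of 20, where the share over all genes would give under 1. Both Runx1 and Ets1 are also known from cells other than leukocytes, and these counts do not assign a cluster to 4T1 cells or splenocytes.

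Other lists ranged from 0 to 2 genes. Hypoxia targets gave 2 of 18, the hexokinase gene Hk2 with 9 member windows and the glycolytic regulator Pfkfb4 with 2. Interferon and antigen presentation genes gave 2 of 19, the GTPase gene Irgm1 with 9 and Zbp1 with 1, the latter from the cluster over Pmepa1. Epithelial-mesenchymal transition genes (20), proteasome genes (31), hepatocyte genes (19) and neuronal genes (19) had none, where the share over all genes, 2.13%, would also give few or none. Any window of the list lay in or within 10 kb of 18, 30, 9 and 16 of these genes, in the same order. In all, 26 genes of the lists had a member window, and their members came from 25 clusters.

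**Figure D5:**
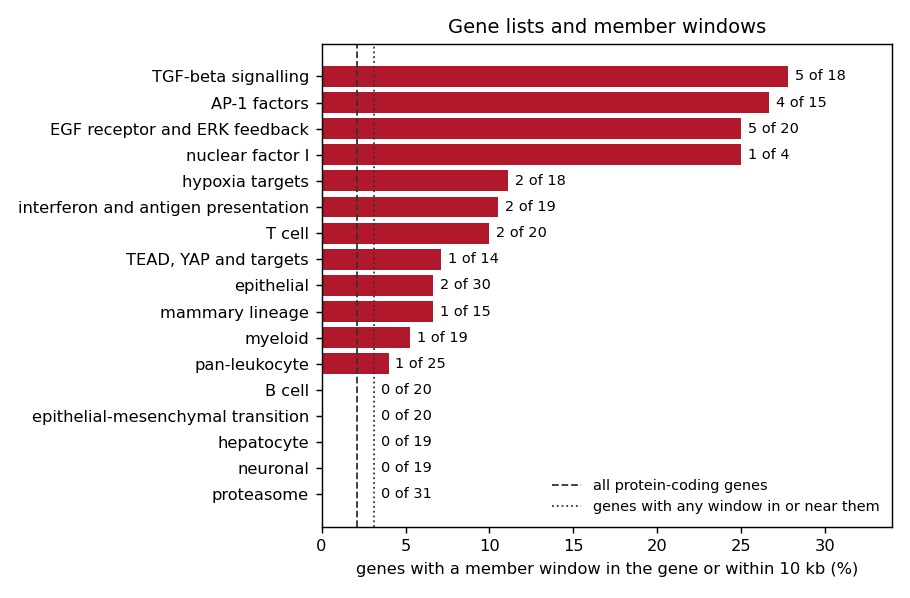
Percentage of the genes of each list (x axis) with a member window in the gene or within 10 kb, with the counts beside the bars. Vertical lines mark the backgrounds, dashed at 2.13% (all protein-coding genes) and dotted at 3.13% (genes with any window in or near them). TGF-beta signalling reached 27.8% with 5 of 18 genes. B cell, epithelial-mesenchymal transition, proteasome, hepatocyte and neuronal genes had none, where the background shares would also give few or none.

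Counted inside gene bodies, the most members lay in Pmepa1 with 30, followed by the annotated model Gm20388 with 27 in 2 clusters, Dlgap1 with 24, 4933407C03Rik with 23 in 3 clusters, and Nrp2 with 21. Ak5, an adenylate kinase gene, had 17, and Runx1 and Wdr96 had 16 each. The next genes had 14 each, among them 2010111I01Rik and Ahnak, which encodes a very large scaffold protein. Pmepa1 held its 30 members in 52.1 kb, whereas Dlgap1 held 24 in 852 kb and all of these in 1 cluster.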

How the data were processed

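Pi-ATAC data of 4T1 cells and splenocytes were used as the list of accessible windows that the authors deposited. Per the study's methods, adapters were trimmed by the authors, who aligned reads to mm9 with Bowtie2 2.1.0, removed duplicates with Picard 1.79 along with low-quality and mitochondrial reads, and called summits with MACS2 (version not given in the sources used here) on aggregated cells. They widened summits to 500 bp and kept those with the lowest q-values. The deposited unit is a pair of coordinates per window beside a peak name, without count, score or p-value, so read depth is unknown and no group comparison was made. The wording of the peak names was taken to mean that 4T1 cells and splenocytes were pooled. This conflicts with the methods, which state that summits were called per condition, and the conflict could not be resolved here. Groups came from the titles (96 and 96 cells), and 1 sample titled as 4T1 has the source name of the splenocytes.

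Windows were stitched and annotated with GENCODE vM1 on the same build (protein_coding, lincRNA and processed_transcript genes). Position classes used window midpoints. Words were searched in the reference sequence. The share of masked repeats, also planned, was not computed, because the reference used carries no masking. Members and gene lists were chosen with earlier results of these data known. Named were the 10 clusters with the most members (ties by shorter span) with their overlapping or nearest protein-coding genes, up to 6 genes per list with member windows, and the 10 genes with the most members inside (ties by name). The stretch of 1 of the 10 clusters is not reported here. Of 330 list entries 326 matched the annotation. Windows sharing 20 or more stretches of 24 bases with another window of their cluster numbered 11, in 4 clusters. Python 3.11.15, pandas 2.3.3 and SciPy 1.17.1 were used, and stitching and word search were tested on simulated data.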

Additional observations from a re-analysis of the deposited data

How the results depend on the processing

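Alternatives changed 1 choice at a time. Members numbered 932 with a stitching gap of 8 kb, 4201 with 20 kb, 4510 with 8 or more windows per cluster, 910 with 16 or more and 1080 with overlapping windows merged before stitching. List genes with a member window numbered 16, 48, 64 and 12 under the first 4 of these, rising and falling with the number of members. The share over all protein-coding genes was not computed at these settings, so the counts do not show whether the lists stayed above it. The intronic share of members was 43.6% with 8 kb, 49.4% with 8 or more windows, 52.3% with merging and 49.6% without chromosomes 1 and 10 to 13. The multi-summit share was 21.6% with 20 kb, 28.2% with 16 or more windows and 15.4% with merging. The share of numbered calls kept inside clusters, for which alternatives were chosen after seeing the data, was 75.1% with 8 kb, 64.8% with 20 kb and 66.8% with merging. The AP-1 difference between members and lone windows, 2.48 points as reported, was 0.220 with 8 kb, 0.0713 with merging, 0.771 with 16 or more windows, 3.80 with 20 kb, 4.08 without chromosomes 1 and 10 to 13 and -0.102 in the central 200 bases. The GC box difference, 3.06 points as reported, was 2.06 over 2.5 kb from a start, 1.63 with merging, 1.15 in the central 200 bases and 0.555 with lone windows weighted to the GC content of members. The RUNX difference, -1.83 as reported, was -0.901 with 20 kb, -0.892 with 8 or more windows, -0.865 with that weighting and -0.812 in the central 200 bases. The SNAI and ZEB difference turned to -0.789 with that weighting and was 2.68 in the central 200 bases. The median GC content stayed within 51.4% to 52.0% under all 9 alternatives run for it. The list has no depth or score, so no weaker or stronger part of it could be set apart. No paired analysis was possible because the list pools the cells and has no value per sample.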

Other observations

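The clusters described here were chosen after their values were seen. Among clusters with 8 or more members, the AP-1 word was most frequent in a cluster inside 4933407C03Rik (chr8:119831692-119922746), in 10 of 14 members, and next in a cluster at the start of Ahnak (chr19:9055265-9072424), in 7 of 10. At the other end, 7 such clusters had no AP-1 member. They included an intergenic cluster of 18 members (chr15:85464840-85517658), whose centre lay 74.2 kb from the start of Ppara, a nuclear receptor gene. It had no AP-1, TEAD or RUNX word and the NFI word in 7 members. Another was a cluster of 14 members in introns of Eif2c2, which encodes an Argonaute protein (chr15:72967513-73016222).

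The densest clusters were short. The densest (chr6:129180068-129188775), its centre 41.0 kb from the start of Cd69, a leukocyte activation gene, held 13 windows in 8.71 kb, 5 of them members. Windows covered 69.4% of its span. The cluster over Myc, a growth-promoting transcription factor gene (chr15:61814604-61830740), held 17 windows in 16.1 kb, 9 of them within 1 kb of a start.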
